A study of Homo sapiens with 27 samples.

Results

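Insertions made by parental and by hyperactive piggyBac transposase, both with the wild-type transposon, were compared in HCT116, an established human colorectal carcinoma line. The comparison rests on 6 of the 27 libraries of the study, chosen by their labels: 3 with the wild-type transposon and piggyBac, called parental below, and 3 with the same transposon and hyperactive piggyBac. All 6 carried a self-reporting transposon and were selected with puromycin at 3 µg/ml for 2 weeks, so every insertion described was made in cells that survived selection. The labels do not say which amino acid changes the hyperactive form holds, nor whether replicates were separate cultures, so p-values measure only the spread between these samples, which may be technical. No expression was measured, and the cell line was not checked against marker genes.

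PiggyBac is a cut-and-paste DNA transposon first found in a moth. Its transposase joins the transposon to the target tetranucleotide TTAA and leaves no footprint when it excises. In a self-reporting transposon, transcription starts inside the element and runs outward through its end, so that RNA carries the flanking genomic sequence and marks the insertion. Hyperactive piggyBac is a mutant transposase selected for more frequent transposition. In mammalian cells piggyBac is known for inserting often near active gene starts and in open chromatin.

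Each library is a list of peaks of RNA coverage, and the 5′ edge of a peak was taken as the insertion. A site is 1 such position, counted once per library, and its height is the largest coverage in the peak, at least 5 in every file. The parental libraries held 437446, 346918 and 420845 sites, and the hyperactive ones 412968, 408331 and 453193, in the order of replicates 1 to 3. A constant per file, read here as the total of mapped reads, ran from 8204478 to 9749822. Since PCR reads were not tagged with molecular identifiers, heights are not counts of molecules. Hyperactive replicates 1 and 2 shared 75.9% of their sites on average, against 27.4% to 27.5% for each with replicate 3. They were averaged and counted as 1 sample throughout, which leaves 3 parental against 2 hyperactive samples. Leaving out replicate 3 of the hyperactive group leaves 1 hyperactive sample, so only sizes of change are read for that setting. Its counts of passing genes and windows appear only among the alternatives at the end. With 10 possible assignments, the exact two-sided permutation test on a single value cannot give a p below 0.1.

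The sequence of the target was read in RefSeq promoter windows of GRCh38.p14, each 250 bases before to 50 bases after a gene start. These 34961 windows hold 28600 distinct TTAA positions, and 46.1% of windows have at least 1. The promoter of INPP4B, an inositol polyphosphate phosphatase gene, is printed because it holds listed and unlisted targets side by side. Of coding promoters it has the most targets listed in all 6 libraries, with ties settled by the number of TTAA. The 250 bases before the start, at chr4:142405860-142406109 on the minus strand, are given 5′ to 3′ on the gene's strand, with TTAA in capitals.
INPP4B: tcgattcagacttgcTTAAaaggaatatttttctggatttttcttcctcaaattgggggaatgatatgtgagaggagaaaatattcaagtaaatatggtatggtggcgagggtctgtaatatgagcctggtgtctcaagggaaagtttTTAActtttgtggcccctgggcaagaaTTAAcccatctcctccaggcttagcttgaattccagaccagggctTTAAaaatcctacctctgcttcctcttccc
Of its 4 TTAA, the outer 2 were listed in all 6 libraries and the inner 2 in none. At the first, 232 bases before the start, heights were 16, 45 and 33 in the parental and 15, 25 and 32 in the hyperactive libraries. At the last, 27 bases before the start, they were 17, 13 and 13 against 28, 25 and 22. The inner 2, 99 and 72 bases before the start, were at no listed site of either transposase, but in all 6 libraries they lay inside a peak that began elsewhere, so the lists do not show that they were unused.

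Among coding promoters, the 6 targets with the largest summed height among those listed in all 6 libraries are shown with 10 bases on either side, on the gene's strand, because they let the target and its neighbours be compared.
YJU2: ttacaaaattTTAAcgagccgctg
TENT2: ctggcagcagTTAAgaaactcctt
GSTO1: ttaagatgttTTAAgggctatccc
CHMP4A: tgtggcagctTTAAgaggagcgcg
PCOLCE2: ataatcgcctTTAAaagtgcctcc
MAPK14: cttcgcgcccTTAAggagacagtc
At YJU2, a splicing factor gene (chr19:4246844-4246847), heights were 253, 262 and 276 with the parental and 219, 181 and 222 with the hyperactive transposase. At TENT2, a terminal nucleotidyltransferase gene (chr5:79612275-79612278), they were 214, 183 and 126 against 180, 167 and 222. At GSTO1, a glutathione transferase gene (chr10:104254753-104254756), they were 189, 189 and 209 against 161, 160 and 156. At CHMP4A, a membrane scission gene (chr14:24213638-24213641), they were 141, 142 and 227 against 199, 190 and 163. At PCOLCE2, a procollagen endopeptidase enhancer gene (chr3:142889108-142889111), they were 175, 146 and 163 against 172, 172 and 154. MAPK14, the p38 alpha kinase gene (chr6:36027595-36027598), had 139, 177 and 172 against 176, 167 and 135. Heights of the groups overlapped at TENT2, CHMP4A, PCOLCE2 and MAPK14, whereas at YJU2 and GSTO1 all hyperactive heights lay below all parental ones.

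Both transposases kept to TTAA. Of sites inside promoter windows, 98.1%, 98.0% and 98.2% began at TTAA in the parental libraries, and 97.8%, 97.8% and 97.0% in the hyperactive ones. The groups did not overlap, at 98.1% ± 0.11 (SD, n = 3) against 97.4% ± 0.56 (SD, n = 2), but the gap was 0.74 percentage points. Of the other tetranucleotides at listed positions, CTAA and TTAG were the most frequent, with 86 and 70 listings summed over the 6 libraries. Of all promoter TTAA, 9.77%, 8.42% and 9.45% were listed with the parental and 9.37%, 9.30% and 10.01% with the hyperactive transposase. These shares overlapped (difference 0.46 percentage points, exact permutation p = 0.6).

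The groups lay apart in the bases beside the target. A TTAA can be extended by a T before it and an A after it, which gives the hexanucleotide TTTAAA, a palindrome found in 12.3% of the promoter windows. Of 27825 promoter TTAA with flanks inside their window, 4576 (16.4%) were extended on both sides and 11166 (40.1%) on neither. The parental transposase was listed at 11.5%, 9.09% and 9.94% of TTTAAA targets, and the hyperactive one at 12.4%, 12.2% and 12.7%. At targets extended on neither side the order was the opposite in means, with 8.81%, 7.68% and 8.76% parental against 7.43%, 7.17% and 7.88% hyperactive, and here the groups overlapped.

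The ratio of these shares, TTTAAA over neither side, compares targets within a library. It was 1.30, 1.18 and 1.14 with the parental transposase and 1.67, 1.71 and 1.62 with the hyperactive one. All hyperactive libraries lay above all parental libraries. The means were 1.21 ± 0.086 (SD, n = 3) and 1.65 ± 0.049 (SD, n = 2), a difference of 0.44 (exact permutation p = 0.1, the smallest possible). The groups also stayed apart within each tertile of windows by GC content, with differences of 0.26, 0.73 and 0.48 from the lowest to the highest tertile. With peaks of height 10 or more alone the difference was 0.57. This ratio was chosen after the data were seen.

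**Figure D1:**
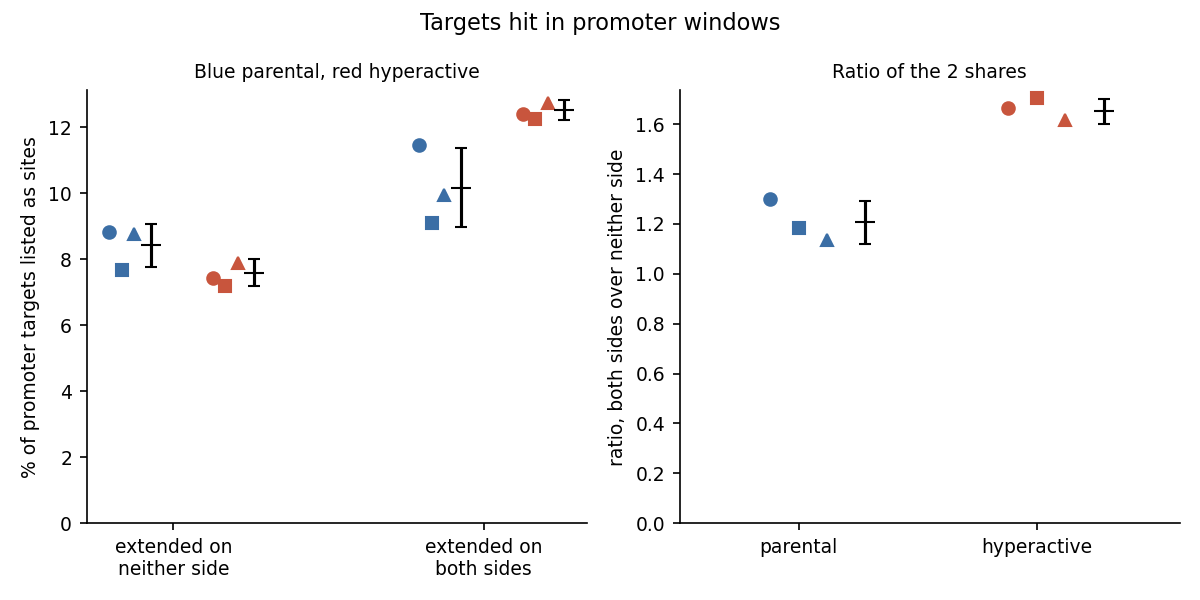
Left, the percentage of promoter TTAA listed as sites (vertical axis) for targets extended on neither or on both sides, and right, the ratio of both shares. Points are libraries (circle, square and triangle for replicates 1, 2 and 3; blue parental, red hyperactive) and bars the mean ± SD, with hyperactive replicates 1 and 2 averaged first. The hyperactive ratios of 1.62 to 1.71 all lie above the parental ratios of 1.14 to 1.30.

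Most of the contrast in base shares was in the single base next to TTAA. Reading outward from both sides of the palindrome on its own strand, T stood next to the target at 41.6%, 40.6% and 40.1% of parental and 45.0%, 45.3% and 44.7% of hyperactive promoter sites. A was also more frequent, with 16.0% ± 0.28 (SD, n = 3) against 18.8%. C was less frequent, with 28.7% ± 0.51 against 24.8% ± 0.19, and so was G, with 14.6% against 11.6%. The groups did not overlap for any of the 4 bases. Over all promoter TTAA the same position holds T at 38.2%, A at 23.8%, C at 21.0% and G at 17.1%. In all 6 libraries C and T were above these shares and A and G below them. From the second to the fifth base outward, no base differed between the groups by more than 1.16 points.

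Targets listed in every library of 1 group and in none of the other showed the same contrast in small numbers. Of 723 promoter TTAA listed in all 6 libraries, 163 (22.5%) were TTTAAA. Of 112 promoter TTAA listed in all 3 hyperactive and no parental library, 28 (25%) were TTTAAA, against 2 of 54 (3.70%) in the opposite set. No test was made on these sets, since membership depends on the same listings and on the linked pair.
The 4 coding promoter targets with the largest summed height in each set are shown, chosen by the same rule, with TTAA in capitals. The first 4 were listed in all 3 parental and no hyperactive library, and the last 4 the other way round.
FKBP7: agaaacagcgTTAAccgcgctgag
ZNF688: tccgggtcccTTAAcccgggtgtc
MRPL1: ctttctctttTTAActccttccct
SSMEM1: gaacagttgcTTAAgtatgtgtca
PNMA8B: atcgggacctTTAAgaaaagcgtc
MRPL52: tcagaacggcTTAAtctgggagga
MRPS18A: ccctagatccTTAAcacgaaatat
PPP2R1B: gaagggagccTTAAtcatcgggac
MRPL1 and PNMA8B are extended on 1 side and the others on neither, so none of these 8 is TTTAAA. FKBP7, a peptidyl-prolyl isomerase gene (chr2:178478684-178478687), had parental heights of 91, 67 and 64. ZNF688, a zinc finger gene (chr16:30571869-30571872), had 60, 71 and 75. MRPL1, a mitochondrial ribosomal protein gene (chr4:77862746-77862749), had 55, 92 and 14, and SSMEM1 (chr7:130207792-130207795) had 26, 46 and 47. Peaks of all 3 hyperactive libraries covered the targets of FKBP7, ZNF688 and SSMEM1 without starting there, and a peak of 1 covered that of MRPL1. PNMA8B (chr19:46496040-46496043) had hyperactive heights of 124, 135 and 69. MRPL52, another mitochondrial ribosomal protein gene (chr14:22829679-22829682), had 146, 138 and 7. MRPS18A, of the small mitochondrial ribosomal subunit (chr6:43687963-43687966), had 58, 63 and 55. PPP2R1B, a scaffold subunit gene of protein phosphatase 2A (chr11:111766495-111766498), had 47, 37 and 83. No parental peak covered the targets of PNMA8B and PPP2R1B, whereas peaks of 2 parental libraries covered that of MRPL52 and a peak of 1 that of MRPS18A. A target that was covered but not listed is not shown to be unused.

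Among targets listed in all 3 hyperactive and no parental library, that of BTBD3, a BTB domain gene, is shown because it is TTTAAA, in capitals.
BTBD3: gttactggcTTTAAAgggttactg
Its heights (chr20:11892402-11892405, for the 4 inner bases) were 18, 18 and 40 in the hyperactive libraries. A peak of 1 parental library covered the target without starting there.

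Every hyperactive library held a larger share of its sites near gene starts, and a smaller share far from genes, than any parental library. Sites within 5 kb of an annotated start made up 16.5%, 16.8% and 16.6% of parental and 17.3%, 17.4% and 17.3% of hyperactive sites. Chromosome 8 is left out of this share. Sites more than 100 kb from any coding gene made up 15.7%, 16.3% and 15.8% against 15.4%, 15.3% and 15.2%, with means of 15.9% ± 0.30 (SD, n = 3) and 15.3% ± 0.11 (SD, n = 2). Sites inside an annotated gene made up 64.4%, 64.1% and 64.3% against 63.7%, 63.7% and 63.3%. The groups did not overlap in any of these measures, but among the tallest peaks the far share lay the other way, as given with the heights below. Each gave an exact permutation p of 0.1, the smallest possible, and 0.15 after Benjamini-Hochberg adjustment over 9 measures. Sites in noncoding genes alone made up 13.7% ± 0.094 against 13.9% ± 0.034, with the same p.

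Around starts, the groups lay apart from 3000 to 500 bp upstream and overlapped at the start itself. They also lay apart from 6500 to 3500 bp upstream, with ratios of 1.05 to 1.07, and overlapped between 3500 and 3000 bp. Farther upstream they lay apart between 9000 and 8000 bp and between 7500 and 7000 bp, and overlapped in the other bins up to 10000 bp. Between 1500 and 1000 bp upstream, 1.03% ± 0.023 (SD, n = 3) of parental and 1.12% ± 0.0057 (SD, n = 2) of hyperactive sites were found, a ratio of 1.09. Between 2500 and 2000 bp upstream the ratio was 1.09, with 0.69% against 0.74%. In the 500 bp on either side of the start the ratios were 1.01 and 0.99, and the groups overlapped. Downstream they also lay apart between 1000 and 2000 bp and between 4500 and 5000 bp, with ratios of 1.02 to 1.06. In the other downstream bins up to 5000 bp they overlapped. The plot of sites around starts shows a dip at the start in all 6 libraries. With a window of 1 kb in place of 5 kb, the start-site share differed by 0.10 points (exact permutation p = 0.5).

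**Figure D2:**
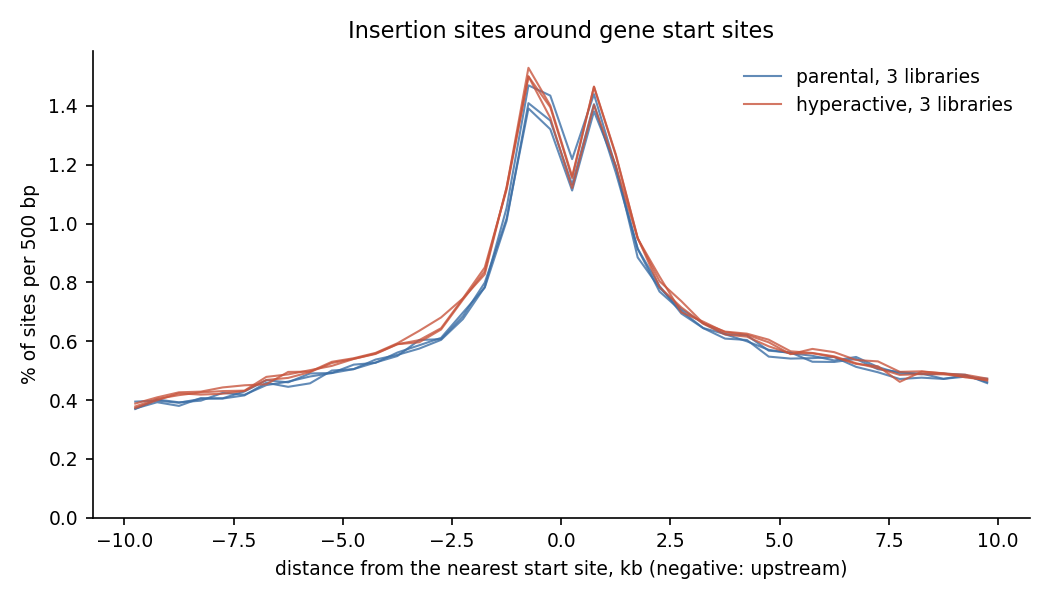
Percentage of sites per 500 bp (vertical axis) against the distance from the nearest annotated start in kb (horizontal axis, negative upstream), 1 line per library. The hyperactive libraries run above the parental ones from 6500 to 3500 bp and from 3 kb to 500 bp upstream, and the lines cross within 500 bp of the start. Chromosome 8 is left out.

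The groups also lay apart in orientation. Positions listed in both orientations made up 5.64%, 5.39% and 5.57% of parental and 6.40%, 6.44% and 6.71% of hyperactive sites, a difference of 1.03 points. Insertions in the sense of the coding gene that held them were in the minority in every library. They made up 36.8%, 37.7% and 36.3% with the parental and 35.8%, 35.7% and 34.3% with the hyperactive transposase, a difference of -1.89 points. Without hyperactive replicate 3 this difference was -1.18 points. Both measures kept the groups apart (exact permutation p = 0.1, adjusted p = 0.15 over the 9 measures). The sense share moved with peak height. At heights of 5 to 9 it was 37.8% ± 1.0 (SD, n = 3) against 34.7% ± 1.2 (SD, n = 2), whereas at heights of 50 or more it was 38.7% against 38.9% and the groups overlapped. The part of peak height in this difference was not tested.

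The number of sites did not separate the transposases, and low peaks were more frequent with the hyperactive form. The log2 number of sites was 18.61 ± 0.18 (SD, n = 3) with the parental and 18.72 ± 0.10 (SD, n = 2) with the hyperactive form (exact permutation p = 0.6). Peaks of height 50 or more made up 5.58%, 7.33% and 6.08% against 5.92%, 5.52% and 4.67% of sites (exact permutation p = 0.3), and these shares overlapped. Peaks of height 5 to 6 made up 20.1% ± 1.4 (SD, n = 3) against 24.4% ± 2.2 (SD, n = 2), and those of height 20 to 49 made up 23.3% ± 1.7 against 19.3% ± 1.9. The groups did not overlap in any height class below 50. The file totals were close to each other, and how many cells or insertions entered each library is not given. Numbers of listed sites are thus no measure of transposition rate. The start-site difference was 0.61 points among sites of height 5 to 6 and 1.86 points at heights of 50 or more, and the groups were apart in both classes. The far share turned direction with height. At heights of 5 to 6 it was 18.1% ± 0.26 (SD, n = 3) against 17.0% ± 0.32 (SD, n = 2), and at heights of 50 or more 11.2% ± 0.18 against 11.9% ± 0.21, again without overlap.

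**Figure D3:**
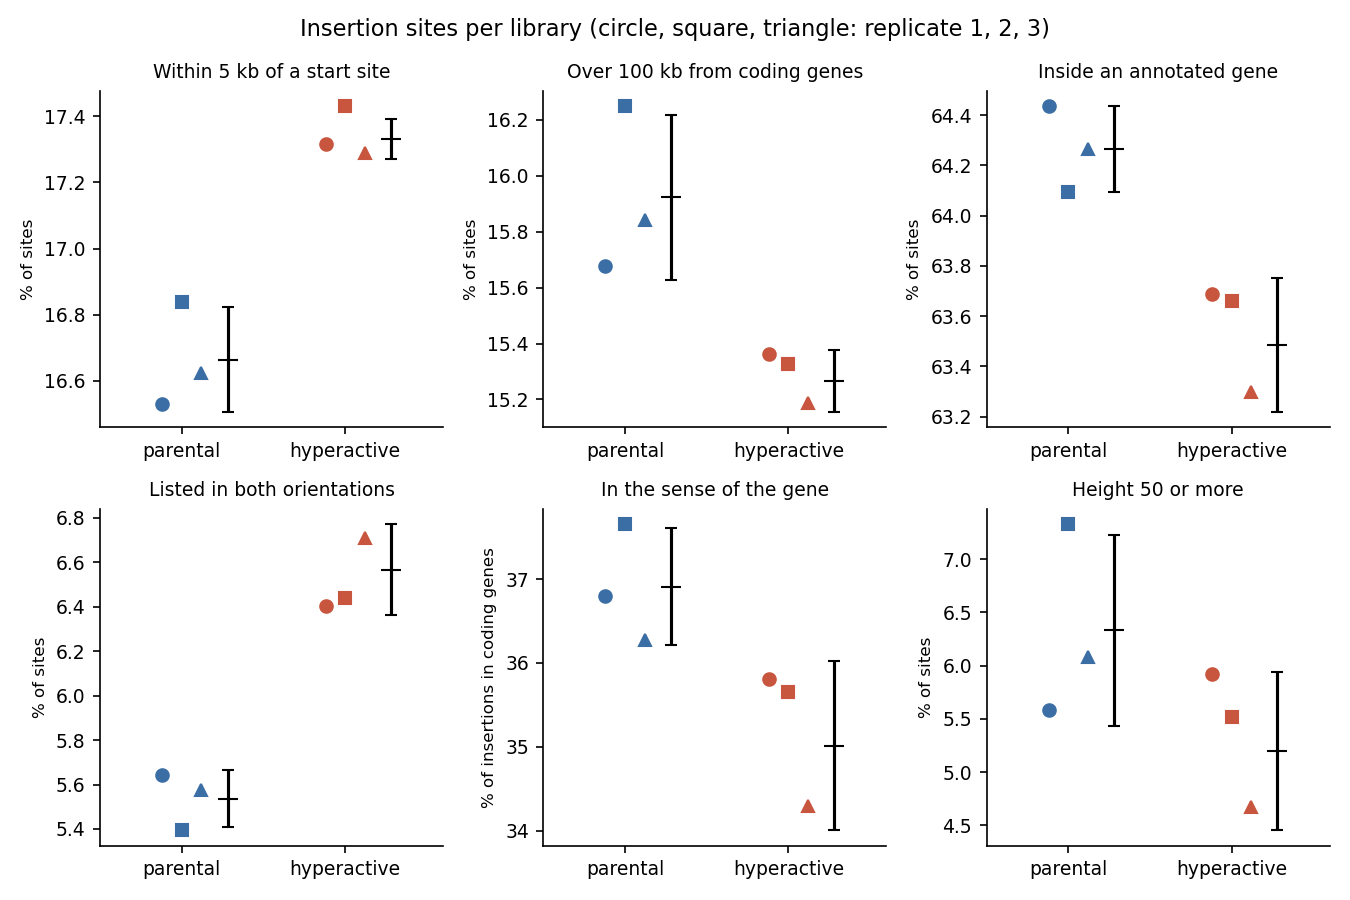
Percentage in 6 classes for each library (vertical axes do not start at 0), of sites or, in the sense panel, of insertions in coding genes. Circle, square and triangle are replicates 1, 2 and 3, and bars the mean ± SD with hyperactive replicates 1 and 2 averaged first. The groups are apart in all panels except height 50 or more, where parental replicate 1 at 5.58% lies among the hyperactive libraries. The start-site and sense panels leave out chromosome 8.

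Individual positions recurred across transposases about as often as between parental replicates. Parental pairs of libraries shared 20.7% to 21.99% of sites, averaged over both members of a pair, and pairs of 1 parental and 1 hyperactive library shared 21.1% to 23.9%. Hyperactive replicate 3 shared more with replicates 1 and 2, at 27.4% to 27.5%. Listed in all 3 hyperactive and no parental library were 26056 positions (1.68%), against 4844 (0.31%) the other way. These 2 counts depend on the linked pair. Of 1550409 distinct positions in the 6 libraries, 66.2% were listed in 1 library and 27508 (1.77%) in all 6. At these shared positions the median height was 30 or 31 in every library, and the median log2 ratio of hyperactive to parental height was 0.01.

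The 5 tallest positions listed in all 6 libraries had large peaks with both transposases. In CRTAP, a collagen prolyl hydroxylation gene (chr3:33115513-33115516), heights were 336, 243 and 393 with the parental and 342, 349 and 409 with the hyperactive form. In MPP7, a membrane scaffold gene (chr10:28095773-28095776), they were 345, 291 and 275 against 327, 341 and 301. At 312 bases from UTP25, a ribosome biogenesis gene (chr1:209827660-209827663), they were 337, 296 and 208 against 360, 339 and 312. In IRAG1, an inositol trisphosphate receptor partner (chr11:10666749-10666752) they were 357, 238 and 346 against 235, 229 and 291. The fifth lay between genes 31296 bases from PDP1, a pyruvate dehydrogenase phosphatase gene (chr8:93885627-93885630), with 280, 233 and 273 against 299, 292 and 315. The groups overlapped at CRTAP, MPP7, UTP25 and IRAG1, and at PDP1 all hyperactive heights were above all parental ones.

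Along the chromosomes, windows that rose with the hyperactive transposase were more often rich in genes and windows that fell more often poor in genes, as counted below. Of 2502 windows of 1 Mb with a mean of at least 20 sites per library, 281 (11.2%) changed in their share of sites at a limma adjusted p under 0.05. Of all tested windows, 95 (3.8%) rose and 186 (7.43%) fell. Of 222 windows with 20 or more coding genes, 22 rose and 1 fell, and the median log2 change was 0.12. Of 135 windows with no coding gene, 2 rose and 21 fell, with a median of -0.16. Over whole libraries, windows with 20 or more coding genes held 8.62% ± 0.10 (SD, n = 3) of parental and 9.39% ± 0.099 (SD, n = 2) of hyperactive sites. Windows without coding genes held 3.04% ± 0.076 and 2.76% ± 0.061. The groups did not overlap in either class.

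**Figure D4:**
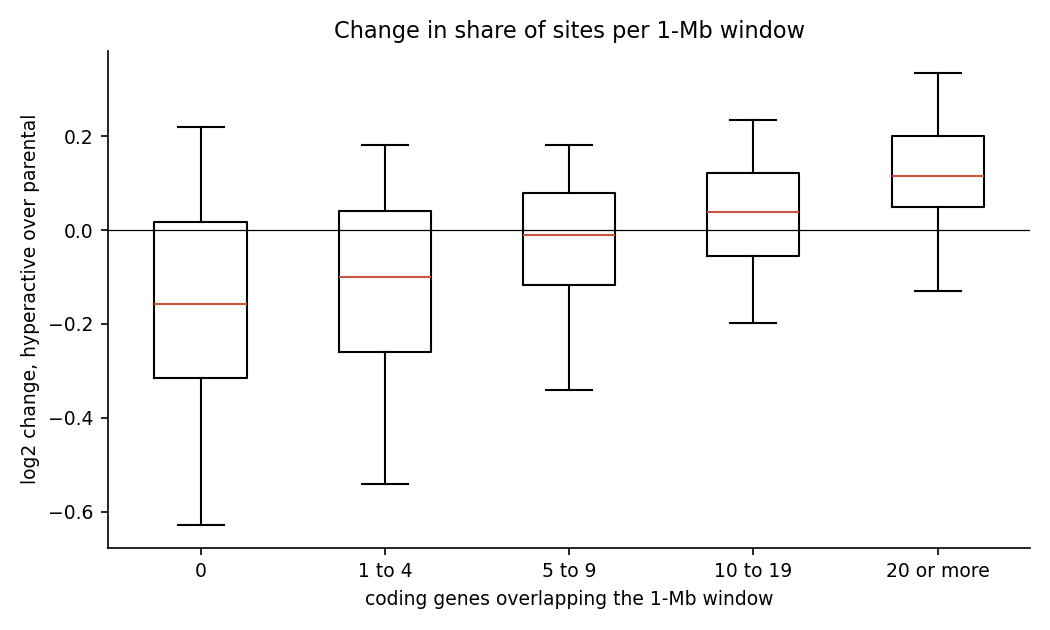
Log2 change in the share of sites, hyperactive over parental (vertical axis), of 1-Mb windows grouped by the number of coding genes that overlap them (horizontal axis). Boxes span the quartiles with the median as a line, and whiskers run from the 5th to the 95th percentile; medians rise from -0.16 in windows with no coding gene to 0.12 in those with 20 or more.

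Of whole chromosomes, 19 and 22 had the highest log2 ratios of hyperactive to parental share and 4 the lowest. Chromosome 19, rich in genes, held 1.33%, 1.33% and 1.34% of parental and 1.49%, 1.501% and 1.56% of hyperactive sites, a log2 ratio of 0.19. Chromosome 22 followed with a log2 ratio of 0.10, at 1.18% ± 0.012 (SD, n = 3) against 1.26% ± 0.011 (SD, n = 2). Chromosome 4 held 7.42% ± 0.090 against 7.02% ± 0.076. Chromosomes 6, 10, 16, 17, 18, 20, 21 and X also held larger hyperactive shares without overlap, and 2, 3, 5 and 13 smaller ones. On chromosomes 16, 18, 21 and X the log2 ratios were 0.041, 0.037, 0.046 and 0.038. No test was made on chromosomes, also not of how these ratios follow the number of genes.

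Of the windows that rose, the largest change was in the first 1 Mb of chromosome 19, which overlaps 33 coding genes. It held 63, 53 and 64 parental and 89, 87 and 88 hyperactive sites (1.36-fold, limma adjusted p = 0.042). The window from 21 to 22 Mb on chromosome 6 had the firmest rise of the 5 largest, with 419, 330 and 371 against 447, 447 and 586 sites (1.28-fold, limma adjusted p = 4.43e-08), and overlaps 3 coding genes. The largest fall was between 152 and 153 Mb on chromosome 5, with 33, 40 and 35 against 25, 21 and 12 sites (log2 change -1.20, limma adjusted p = 0.0001498). From 57 to 58 Mb on chromosome 1, where DAB1 is the coding gene, sites numbered 87, 52 and 60 against 30, 28 and 32. From 169 to 170 Mb on chromosome 5 they numbered 134, 111 and 135 against 70, 62 and 70 (log2 change -0.999, limma adjusted p = 4.08e-12). Without hyperactive replicate 3 the log2 change at 152 Mb was -0.67. The rises on chromosomes 6 and 19 then were 0.23 and 0.51 on the log2 scale, against 0.35 and 0.44 with all libraries. At 152 Mb the hyperactive mean was below 20 sites, so that window was tested only because of its parental counts. Without parental replicate 1 the count of changed windows was 172.

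Among coding genes, most of those that changed fell. Of 2814 genes with a mean of at least 20 sites per library, 73 (2.59%) changed at a limma adjusted p under 0.05, 8 (0.284%) upward and 65 (2.31%) downward. Some of the falling genes, as named below, met that minimum only through their parental counts. In 656 genes (23.3%) the values of the 3 labelled libraries of each group did not overlap, among them 70 of the 73. The falls ran from 1.20-fold to 2.61-fold with a median of 1.67-fold, and the rises from 1.14-fold to 1.55-fold. The count of passing genes without hyperactive replicate 3 is not read as a result, since 1 hyperactive sample is left. All values are shares of a library's sites, so a rise in some genes entails a fall elsewhere. Scaled on the median gene instead, 22 rose and 39 fell.

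The genes with the largest falls named here are long, from 446 to 1698 kb, and held 0.149 to 0.930 sites per 10 kb and library on average, against 33.4 in the densest gene. EPHB1, an ephrin receptor gene (chr3:134795260-135260467), held 48, 19 and 37 parental and 20, 18 and 9 hyperactive sites, a log2 change of -1.38 ± 0.26 (SE, limma adjusted p = 1.19e-04). Without hyperactive replicate 3 its change was -0.79. DOCK2, a guanine nucleotide exchange factor of blood cells (chr5:169637275-170083382), held 55, 54 and 65 against 24, 26 and 25 sites (log2 change -1.30 ± 0.17 SE, limma adjusted p = 4.00e-08). Every parental count at DOCK2 was above every hyperactive count by a wide margin. ARHGAP6, on chromosome X, held 30, 24 and 34 against 19, 11 and 10. CLSTN2, a synaptic calsyntenin, held 64, 31 and 46 against 24, 26 and 17.
Next in size were the falls of NRXN3, ATRNL1, PLD5, SPOCK1 and AGBL4, with log2 changes of -1.11, -1.09, -1.08, -1.08 and -0.99. The hyperactive means of EPHB1, ARHGAP6, NRXN3 and AGBL4 were below 20 sites. These genes met the minimum for testing, a mean over all 6 libraries, only through their parental counts. Without hyperactive replicate 3, the changes of NRXN3, CLSTN2, ARHGAP6, PLD5 and AGBL4 were -0.55, -0.88, -1.02, -0.83 and -0.81. When genes with a mean of 1 site or more were all tested, EPHB1, NRXN3 and AGBL4 missed the threshold (limma adjusted p from 0.071 to 0.11). DOCK2, ARHGAP6, CLSTN2, ATRNL1, PLD5 and SPOCK1 passed in that setting. SPOCK1, a testican proteoglycan gene, held 59, 47 and 47 against 28, 23 and 26 sites. Over all 65 falling genes the median length was 524 kb, against 167 kb for all tested genes. How many of the 65 met the minimum only through their parental counts, as EPHB1 did, was not counted. In the longest quartile of genes (279.6 kb and more), 4 rose and 53 fell, and in the shortest none passed. The median log2 change was -0.10 in the longest and 0.06 in the shortest quartile. The part of gene length in these calls was not tested.

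The 8 genes that rose were CDH23, BICRAL, CLEC16A, AOPEP, HMGA2, MET, CDKAL1 and VTI1A. CDH23, a cadherin of hair cells (chr10:71396920-71815947), held 38, 28 and 45 against 53, 58 and 67 sites, a log2 change of 0.63 ± 0.17 (SE, limma adjusted p = 0.019). BICRAL, a chromatin remodelling complex gene, held 41, 29 and 39 against 55, 57 and 60. HMGA2, which encodes an architectural chromatin protein (chr12:65824460-65966291), held 232, 202 and 263 against 288, 298 and 317, a log2 change of 0.29 ± 0.07 (SE). MET, the hepatocyte growth factor receptor gene (chr7:116672196-116798377), held 185, 155 and 181 against 221, 217 and 233 (log2 change 0.27 ± 0.08 SE, limma adjusted p = 0.0498). VTI1A, a vesicle fusion gene (chr10:112446988-112855368), held 571, 463 and 575 against 615, 627 and 699 sites, a log2 change of 0.19 ± 0.05 (SE, limma adjusted p = 0.018). Without hyperactive replicate 3 the log2 changes of the 8 ran from 0.18 to 0.59. None of the 8 passed when genes with a mean of 1 site or more were all tested. MET, BICRAL and CDKAL1 also missed the threshold without parental replicate 1 or 3, HMGA2 and VTI1A without parental replicate 1, CDH23, BICRAL and CLEC16A without parental replicate 2, and CDH23, BICRAL and CLEC16A with peaks of height 10 or more.

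**Figure D5:**
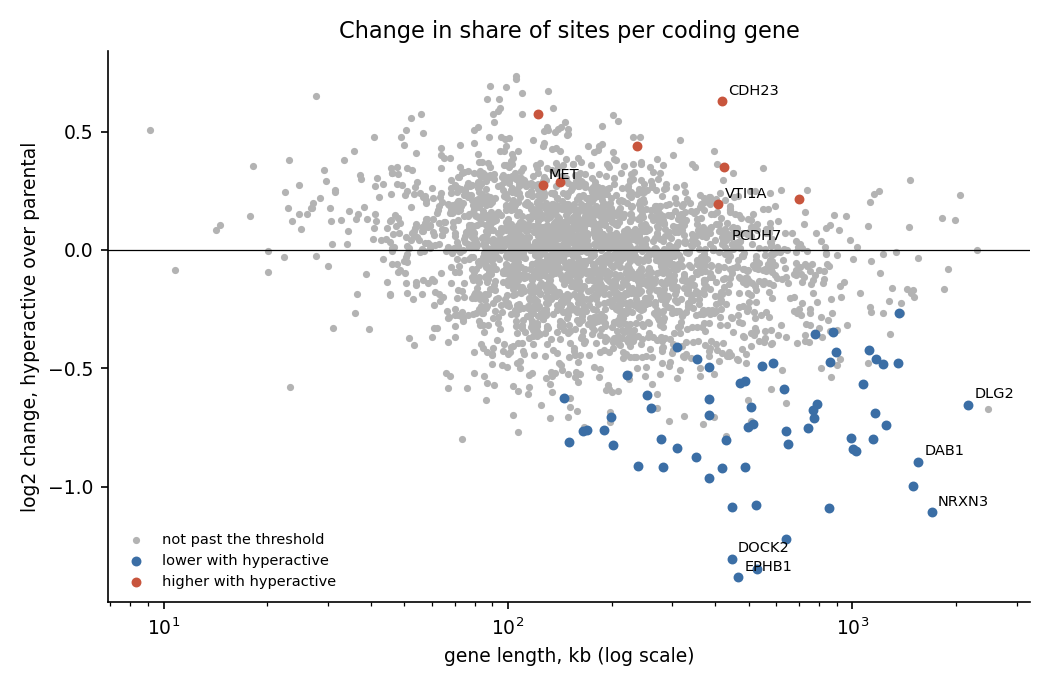
Log2 change in the share of sites per coding gene, hyperactive over parental (vertical axis), against gene length in kb (horizontal axis, log scale), for 2814 tested genes. Blue points are the 65 genes that fell, red the 8 that rose, and grey those not past the limma threshold; most blue points lie right of the median length of 167 kb.

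Of the 5 genes with the most insertions, VTI1A alone passed the test. PCDH7, a protocadherin and the gene with the most sites, held 1452, 1286 and 1379 parental and 1457, 1428 and 1546 hyperactive sites, a log2 change of 0.01 ± 0.04 (SE). ZBTB20, a zinc finger repressor, held 726, 603 and 705 against 726, 714 and 750, a change of 0.01 ± 0.05 (SE). PALLD, an actin cytoskeleton gene, had 0.12 ± 0.05 (SE, limma adjusted p = 0.27), and PPP3CA, the calcineurin catalytic subunit gene, 0.06 ± 0.05 (SE). Per 10 kb and library, PCDH7 was also the densest gene at 33.4 sites on average, followed by PDP1 at 26.4, H2BC4 at 23.9 and EREG at 20.7. EREG, the epiregulin gene, held 44, 36 and 56 against 53, 51 and 53 sites, and the groups overlapped. At heights of 10 or more, PCDH7 had a log2 change of 0.12 with a limma adjusted p of 0.0012, and PALLD 0.21 with 0.0020. On the median scale PALLD had a limma adjusted p of 0.023.

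Gene lists were read by their counts against all tested genes, of which 8 rose, 65 fell and 52.6% had a change below 0 (median log2 change -0.01). Of 16 giant genes of common fragile sites, 13 were tested, 3 fell and none rose, with a median of -0.22. DAB1, a reelin adaptor gene (chr1:56994778-58546726), held 154, 90 and 108 against 67, 66 and 66 sites (log2 change -0.89 ± 0.12 SE, limma adjusted p = 4.00e-08). DLG2, a synaptic scaffold gene, held 115, 52 and 112 against 64, 56 and 60. The lowest count was in parental replicate 2, the library with the fewest sites. Per 10000 sites of a library, DLG2 held 2.26 ± 0.66 (SD, n = 3) against 1.39 ± 0.097 (SD, n = 2), and the groups overlapped. NAALADL2 changed by -0.27. LRP1B, a lipoprotein receptor relative, had -0.08 and did not pass.
Of 18 long neuronal genes, 9 were tested and 4 fell, with NRXN3, NLGN1 and GRM7 among them and none rising and a median of -0.42. NLGN1, the neuroligin 1 gene, held 120, 110 and 163 against 105, 93 and 108 sites, with a log2 change of -0.43 ± 0.11 (SE). GRM7, a glutamate receptor gene, had -0.35 ± 0.10 (SE). On the median scale NLGN1, GRM7 and NAALADL2 no longer passed. NAALADL2 also missed the threshold with peaks of height 10 or more and without parental replicate 1 or 2 or hyperactive replicate 2. GRM7 missed it with peaks of height 10 or more and without parental replicate 2 or 3. NLGN1 missed it without parental replicate 3. DAB1 and DLG2 passed in each of these settings. Without hyperactive replicate 3, the changes of DAB1, DLG2, NAALADL2, NLGN1 and GRM7 were -0.82, -0.58, -0.25, -0.42 and -0.41. When genes with a mean of 1 site or more were all tested, DAB1 passed, whereas DLG2, NAALADL2, NRXN3, NLGN1 and GRM7 did not. Both lists hold long genes, and length was not separated from the list.

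Of 20 growth and immediate-early genes, 4 were tested, and MET alone rose. EGFR, the epidermal growth factor receptor gene, held 118, 84 and 106 against 126, 118 and 153 sites (log2 change 0.31, limma adjusted p = 0.089). Of 24 Wnt pathway genes 10 were tested, of 20 tumour suppressors 9, of 20 colon epithelial transcription factors 6 and of 20 genes of BET proteins and transcription elongation 5, and none in these 4 lists passed. TCF7L2, the Wnt effector beside VTI1A on chromosome 10, held 159, 139 and 156 against 176, 163 and 176 sites, a log2 change of 0.08. TGFBR2, a growth-inhibitory receptor gene, had 0.31 with a limma adjusted p of 0.13. On the median scale EGFR and TGFBR2 passed, with limma adjusted p-values of 0.024 and 0.049. All 5 tested genes of the BET and elongation list had changes below 0, from -0.27 to -0.11, none past the threshold.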

How the data were processed

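The authors deposited a peak list per library, in which coverage signal is given as a sum and as a maximum (height), with no scaling seen in the values, and another column holding 1 constant per file, whose meaning the labels do not state. Cutadapt 3.4, HISAT2 2.2.1.0, hg38 and GRCh38.p5 are named in the submitters' processing notes. The peak caller and any removal of duplicates are not given in the sources used here. A site was the start of a plus-strand peak or the end minus 3 of a minus-strand peak, on chromosomes 1 to 22 and X. Genes came from RefSeq GRCh38.p14 (58419 genes, 19821 coding). Its 679 rows that start again at low coordinates after the end of a chromosome's list, as on alternate scaffolds, were left out. The table has no exons, so positions within genes were not split into exon and intron. Strand was known for 15812 coding genes, none of them on chromosome 8.

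Sites per gene or 1-Mb window were taken as log2 of sites per 1000000 with a prior count of 0.5 and tested with limma 3.58.1 (R 4.3.3, lmFit and eBayes with trend, 2-sided, Benjamini-Hochberg), after a check on simulated data. Hyperactive replicates 1 and 2 were averaged first. Single values were compared by exact two-sided permutation over samples. Named genes were the 10 largest changes in each direction among those past the threshold, the 10 densest, the 5 with the most sites and, per list, those that passed and the 2 with the most sites. Members, lists and rules were chosen with earlier results of these data known. Alternatives changed the linked pair, the minimum, the scale, the height, depth, block, prior, weights and window, and left out each library. A few genes and target sequences that the rules name are not reported here.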

Additional observations from a re-analysis of the deposited data

How the results depend on the processing

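Of the single measures, only the log2 number of sites changed sign, to -0.047 with peaks of height 10 or more. All others kept their direction under the alternatives named above. Among heights of 50 or more alone, the far share and the sense share were higher with the hyperactive form, and the sense shares overlapped. Of coding genes, 141 passed with all 6 libraries as separate samples and 17 with a minimum mean of 1 site. Leaving out 1 library gave 15 to 76 genes, the lowest without hyperactive replicate 3. Of 1-Mb windows, 473 passed with all 6 separate and 144 with peaks of height 10 or more. With larger windows of 5 Mb 125 passed and with 250-kb windows 80, of 580 and 7526 tested. Leaving out 1 library gave 83 to 259 windows, the lowest without hyperactive replicate 3 and 172 without parental replicate 1. Without hyperactive replicate 3 only 1 hyperactive sample is left, with no spread between hyperactive samples. The lowest counts, from that setting, therefore do not show how firm the calls are. Leaving out any other library gave 57 to 76 genes and 172 to 259 windows. On the median scale 211 windows rose and 153 fell, against 95 and 186, and 22 genes rose and 39 fell, against 8 and 65. With peaks of height 10 or more, 12 genes rose and 43 fell, and 63 windows rose and 81 fell. The cause of these changes was not tested. With the replicate number as a block, 108 genes and 422 windows passed. Libraries with the same number did not deviate together (correlations from -0.05 to 0.04), so the numbers were not taken as pairs. The depth behind single genes of 20 to 60 sites limits what can be called.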
